A study of Mus musculus with 6 samples.

Results

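A set of 38 genes of the lysosome was followed in splenic myeloid cells of mice given rapamycin or PBS. It holds 8 cathepsins, 8 glycosidases, 3 sulfatases, the saposin precursor Psap, progranulin (Grn), the lipofuscinosis enzymes Tpp1 and Ppt1, 4 proteins of the lysosomal membrane, the transcription factors Tfeb and Tfe3, and 9 genes of the proton pump. The members were listed by name with earlier results of these data known, so the list as a whole was not tested. All 38 were found among the 19938 genes measured, each as the brightest probe set that carries only its symbol, and all 38 lay above the brightness threshold of log2 4.72 (the 30th percentile of named probe sets), with the dimmest at a mean of 6.33.

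The lysosome is the acidic compartment in which proteins, lipids and sugar chains are taken apart, and phagocytes are rich in it. Cathepsins cleave proteins, glycosidases and sulfatases remove sugars and sulfates in a fixed order from the ends of glycolipids and glycosaminoglycans, and the V-type proton pump supplies the acid that these enzymes need. The kinase complex mTORC1, the target of rapamycin, is switched on at the lysosomal surface, and it phosphorylates Tfeb and Tfe3, factors that bind E-boxes in promoters of many lysosomal genes when they reach the nucleus.

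The cells, called MDSCs in the labels (myeloid-derived suppressor cells, which can restrain T cells), were sorted with beads against CD11b from spleens taken 10 days after transplantation. All 6 mice were lethally irradiated B6D2F1/J recipients of B6 marrow that had been depleted of T cells, and the labels do not tell which of them also received B6 spleen cells. The 3 rapamycin mice were injected intraperitoneally with 1.5 mg/kg rapamycin on alternate days and the 3 PBS mice with PBS. One array was read per mouse, and values are log2 expression. Array medians ran from 5.42 to 5.46. The number of arrays limits the precision: the standard error of a member's difference was between 0.039 and 0.097, with a median of 0.063.

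The markers of myeloid cells were bright. Itgam, which encodes CD11b, lay between 12.22 and 12.48 on the log2 scale, and the neutrophil markers S100a8 and Ly6g lay between 13.18 and 13.35 and between 11.66 and 12.36. Of 16 measured macrophage markers 15 were above the brightness threshold, of 7 eosinophil markers 4 and of 6 B cell markers 2. Of 11 markers of T and NK cells 7 were above it, and of 8 dendritic cell markers 6. The eosinophil granule gene Epx and the B cell genes Cd79a and Ms4a1 were under it.

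Rapamycin went with small changes in some of these genes and in both directions. The proteases Ctsa, Ctsc, Ctsd and Ctsl, the membrane protein Cln3, the sulfatase Arsa and the pump subunit Atp6v0a1 rose, by between 1.19-fold and 1.38-fold. The sulfatases Sgsh and Arsb fell, to 0.796 and 0.739 of the PBS level. None of the 8 glycosidases passed the test. Of the 38 members, 7 rose, 2 fell and 29 did not pass at an adjusted p under 0.05 with limma. Among all 13965 genes tested 11.3% were called, 4.42% higher and 6.92% lower, against 23.7% of the members, 18.4% higher and 5.26% lower. All 38 members also lay above the 50th percentile of brightness, and among genes above it 17.9% were called, 7.13% higher and 10.8% lower. With the array medians aligned, 10.5% of genes were called, the higher calls made up 49.3% of all calls in place of 39.0%, and 7 members were again called higher and 2 lower. No member changed by 1.5-fold or more. In RNA of whole sorted samples, a change in the share of cells that express a gene and a change of its RNA per cell cannot be told apart.

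The median log2 difference of the 38 members was 0.074, beside -0.017 over all genes tested, and 28 members lay above 0 and 10 below. For 12 members all 3 rapamycin arrays lay above all 3 PBS arrays, and for 3 they lay below. Over all genes 32.0% of groups did not overlap, 12.6% higher and 19.4% lower. The 5 members with higher but uncalled values were Ctss, Grn, Tpp1, Ppt1 and Atp6v1a, and the 1 with lower ones was Atp6v1d.

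**Figure D1:**
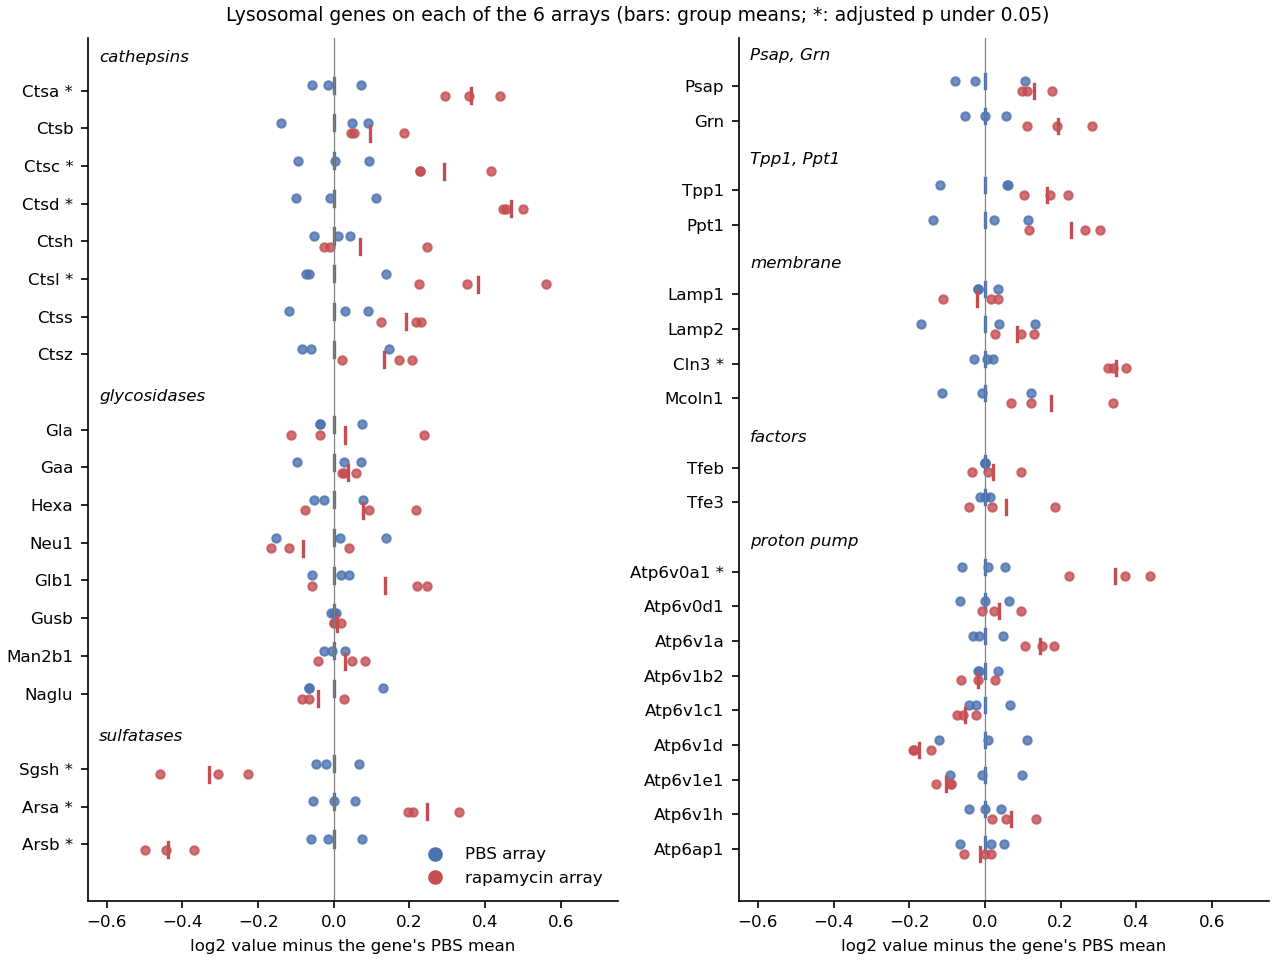
Log2 value of each member on each of the 6 arrays, minus the gene's mean over the PBS arrays; points are arrays (blue PBS, red rapamycin), bars are group means, and a star marks an adjusted p under 0.05. The red points of Ctsd and Cln3 sit close together and apart from the blue ones, those of Sgsh and Arsb lie to the left, and those of the 8 glycosidases overlap the blue points.

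Promoters are shown for the called members that hold the E-box core CACGTG, the sequence that Tfeb and Tfe3 bind. The RefSeq table of the mouse build GRCm38.p6 gives the 250 bases before and 50 after a gene's start, and 33 of the 38 members matched it by symbol. It has no entry for Ctsb, Ctsh, Atp6v1b2, Atp6v1c1 and Atp6v1h. The searched letters CACGTG, the longer TCACGTGA and GTCACGTGAC read the same on both strands, and each shorter one lies within the longer. The stretches below end before the start, run 5′ to 3′ on the gene's strand, and carry the longest of these motifs in capitals.
Ctsa, chr2:164833734-164833772, plus strand: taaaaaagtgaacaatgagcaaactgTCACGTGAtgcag
Cln3, chr7:126583325-126583412, minus strand: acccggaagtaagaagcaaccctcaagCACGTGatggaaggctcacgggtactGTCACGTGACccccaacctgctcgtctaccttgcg
Ctsd, chr7:142387893-142387952, minus strand: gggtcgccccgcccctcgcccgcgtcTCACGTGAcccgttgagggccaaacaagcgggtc
Ctsd, chr7:142388040-142388077, minus strand: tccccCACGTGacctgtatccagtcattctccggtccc
Ctsl, chr13:64370724-64370770, minus strand: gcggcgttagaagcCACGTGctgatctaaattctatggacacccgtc
Arsa, chr15:89477425-89477467, minus strand: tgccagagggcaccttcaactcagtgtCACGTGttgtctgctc
Sgsh, chr11:119355511-119355566, minus strand: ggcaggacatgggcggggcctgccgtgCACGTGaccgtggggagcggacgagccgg

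The core was found in the promoters of 14 of the 33 members (42.4%), and in those of 8.09% of 27025 genes in the table. The 8-base form TCACGTGA was found in 7 members (21.2%) and 1.12% of all genes, and the 10-base form GTCACGTGAC in 1 member, Cln3, and 0.370% of all genes. Of the 14 members with the core, 5 rose, 1 fell (Sgsh) and 8 did not pass the test, with a median log2 difference of 0.14. Of the 19 without it 2 rose and 1 fell, with a median of 0.078. The 7 with the 8-base form were Ctsa, Ctsd and Cln3, which rose, and Gla, Mcoln1, Atp6v0d1 and Atp6v1a, which did not pass. Lamp1 held 4 copies of the core within its last 61 bases before the start, at a difference of -0.020. A motif in the window was therefore found in members that rose, in 1 that fell and in members that did not pass, and whether the difference depends on it was not tested.

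**Figure D2:**
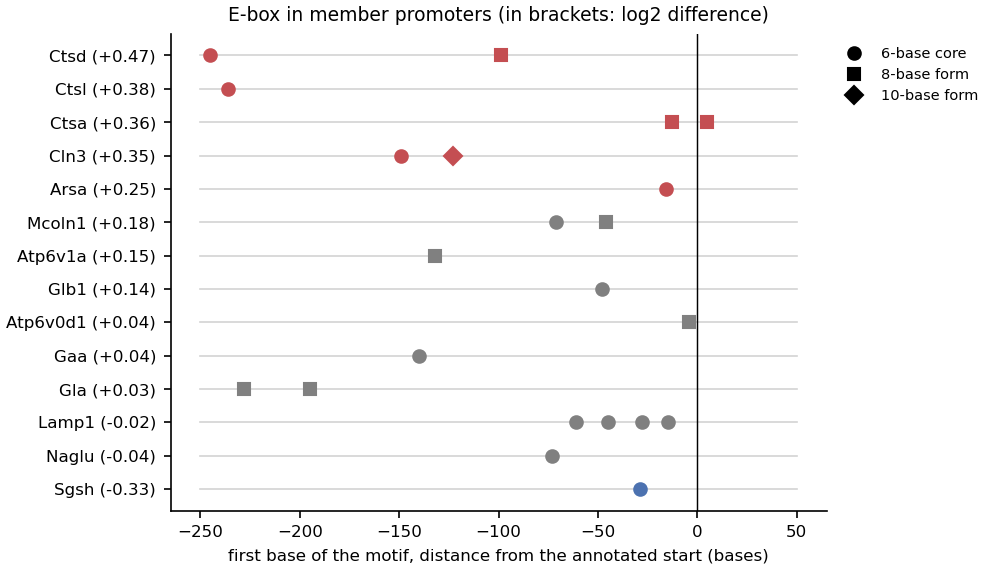
Position of each E-box in the promoters of the 14 members that hold one, as the distance in bases of its first base from the annotated start; the shape gives the length of the motif, and red, blue and grey mark members called higher, called lower and not called. The genes are ordered by their log2 difference, in brackets: Ctsd stands first at 0.47 and Sgsh last at -0.33, the 8-base form occurs in both red and grey rows, and the 10-base form only in that of Cln3, in red.

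Of the 8 cathepsins 4 rose, 0 fell and 4 did not pass, with a median log2 difference of 0.24. Ctsd, the aspartic protease of the lysosome, stood at 11.34, 11.46 and 11.25 in the PBS mice and at 11.85, 11.80 and 11.80 in the rapamycin mice. The groups lay well apart, and the difference was 0.47 ± 0.061 (SE, n = 3 each; limma adjusted p 0.00820). Ctsd was called in each of the 6 refits with 1 array dropped. Ctsa, a serine carboxypeptidase that also shields the enzymes Glb1 and Neu1 from breakdown, read 10.58, 10.45 and 10.49 with PBS and 10.95, 10.80 and 10.86 with rapamycin. It rose by 0.36 ± 0.057 (limma adjusted p 0.0130), with all rapamycin values above all PBS values. Its call ended when rapamycin replicate 1 was dropped (adjusted p 0.0526), and likewise for PBS replicate 3 (0.0566) and PBS replicate 2 (0.0647).

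Ctsl and Ctsc rose as well, closer to the threshold. Ctsl, a cysteine endopeptidase, read 8.06, 8.27 and 8.07 with PBS and 8.49, 8.36 and 8.69 with rapamycin, a difference of 0.38 ± 0.097 (SE; limma adjusted p 0.0478). Ctsc, the dipeptidyl peptidase that activates the serine proteases of neutrophil granules, read 11.83, 11.74 and 11.64 with PBS and 12.16, 11.97 and 11.97 with rapamycin, a difference of 0.29 ± 0.073 (0.0460). The groups do not overlap for either gene, though the highest PBS and lowest rapamycin value of Ctsl differ little. Neither was called when any 1 array was left out: the adjusted p of Ctsl then ran from 0.0531 without rapamycin replicate 2 to 0.148 without PBS replicate 3, and that of Ctsc from 0.0658 without rapamycin replicate 3 to 0.143 without PBS replicate 2.

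The other cathepsins had smaller differences that did not pass. Ctss, which trims the invariant chain of MHC class II, read 11.92, 11.85 and 11.71 with PBS and 12.04, 11.95 and 12.06 with rapamycin, without overlap, at a difference of 0.19 (95% interval 0.038 to 0.34; limma adjusted p 0.106). Ctsz, a carboxypeptidase, gave 0.13 (interval -0.052 to 0.32), Ctsb, a cysteine protease with both endopeptidase and exopeptidase activity, 0.095 (-0.078 to 0.27), and Ctsh, an aminopeptidase, 0.070 (-0.11 to 0.25). In these 3 genes the groups overlapped, and for Ctsh the value of 10.53 in rapamycin replicate 1 stood above all others, which were between 10.23 and 10.33. By mouse, the cathepsins' median deviation from the PBS mean was 0.081, 0.020 and -0.090 with PBS and 0.30, 0.20 and 0.23 with rapamycin. After a repeated quantile normalization the median of the 8 differences was 0.15 in place of 0.24, and Ctsc was not called (adjusted p 0.0880). With no brightness filter, and so more genes to adjust over, Ctsc (0.0646) and Ctsl (0.0709) were not called.

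None of the glycosidases was called. Of the 8, 0 rose and 0 fell, also at an unadjusted p under 0.05, where 28.2% of all genes passed. Their median log2 difference was 0.029, in a range from -0.082 to 0.14, and their 95% intervals lay between -0.29 and 0.33. In each of the 8 the groups overlapped. Glb1, the beta-galactosidase, had the highest difference (0.14; limma adjusted p 0.336), from 7.49, 7.57 and 7.59 with PBS to 7.80, 7.49 and 7.77 with rapamycin, where rapamycin replicate 2 was at the level of the lowest PBS mouse. The sialidase Neu1 had the lowest (-0.082; 0.581). Gusb, the beta-glucuronidase, was nearly constant, between 9.10 and 9.12 on all 6 arrays, with an interval of -0.085 to 0.10 for its difference. Its value was exactly equal in PBS replicate 1 and rapamycin replicates 1 and 2.

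The other members of this group were as flat. Gaa, which breaks down glycogen, differed by 0.036 (95% interval -0.093 to 0.17), Hexa, the alpha chain of hexosaminidase, by 0.078 (-0.11 to 0.27) and Gla, which removes galactose from globosides, by 0.029 (-0.19 to 0.25). Gla read 8.45 in rapamycin replicate 3 and between 8.09 and 8.28 on the other arrays. Man2b1, the acid alpha-mannosidase, differed by 0.030 and Naglu, an enzyme of heparan sulfate breakdown, by -0.041. By mouse, the median deviation from the PBS mean was 0.0092, 0.023 and -0.045 with PBS and 0.012, 0.015 and 0.040 with rapamycin.

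All 3 sulfatases passed the test, in opposite directions. Arsb, which removes sulfate from dermatan and chondroitin sulfate, fell from 8.79, 8.83 and 8.92 in the PBS mice to 8.40, 8.35 and 8.48 with rapamycin, a difference of -0.44 ± 0.056 (SE, n = 3 each; limma adjusted p 0.00815). It is the only member with more than 1 probe set that carries its symbol alone, and the dimmer of its 2 probe sets, between 6.98 and 7.12 with PBS and between 6.70 and 6.82 with rapamycin, gave -0.29 ± 0.056 in a fit of every probe set (0.0334). Both probe sets separated the groups. Arsb was called in 5 of the 6 refits with 1 array dropped, and without PBS replicate 2 its adjusted p was 0.0508. Sgsh, the sulfamidase of heparan sulfate, read 7.04, 7.13 and 7.02 with PBS and 6.76, 6.61 and 6.84 with rapamycin (-0.33 ± 0.069; 0.0285). Arsa, which removes sulfate from the myelin lipid sulfatide, rose from 6.16, 6.21 and 6.27 to 6.54, 6.42 and 6.41 (0.25 ± 0.056; 0.0362). Among the refits with 1 array dropped, Sgsh and Arsa were each called only without rapamycin replicate 3. In the other 5 the adjusted p of Sgsh ran from 0.0583 without rapamycin replicate 2 to 0.111 without PBS replicate 2, and that of Arsa from 0.0711 to 0.115 in the same fits.

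Psap, Grn, Tpp1 and Ppt1 each lay somewhat higher with rapamycin and did not pass the test. Psap, the precursor of the saposins that present lipids to hydrolases, differed by 0.13 (95% interval -0.010 to 0.27). Progranulin, which supports lysosomal protein breakdown and is secreted by myeloid cells, read 11.84, 11.79 and 11.73 with PBS and 11.98, 11.90 and 12.07 with rapamycin, a difference of 0.19 (interval 0.057 to 0.33; limma adjusted p 0.0766). Tpp1, a tripeptidyl peptidase, differed by 0.17 (0.015 to 0.32; 0.142) and Ppt1, which removes palmitate from proteins, by 0.23 (0.043 to 0.41; 0.108). The groups of Grn, Tpp1 and Ppt1 did not overlap, so that all rapamycin mice stood above all PBS mice by a margin smaller than the spread within a group.

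Among the membrane proteins Cln3 stood out by its small spread. Cln3, which is lost in juvenile Batten disease, read 9.16, 9.21 and 9.20 with PBS and 9.56, 9.53 and 9.52 with rapamycin. The values within a group were close together, and the difference was 0.35 ± 0.042 (SE, n = 3 each; limma adjusted p 0.00763), or 1.27-fold. Cln3 was called in each of the 6 refits with 1 array dropped. The main structural proteins of the lysosomal membrane did not pass: Lamp1 differed by -0.020 (95% interval -0.15 to 0.10) and Lamp2 by 0.084 (-0.10 to 0.27). Mcoln1, the calcium channel of the lysosome, differed by 0.18 (-0.031 to 0.38; 0.241), with rapamycin replicate 3 at 8.25 and the other 5 arrays between 7.80 and 8.04.

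The transcription factors did not pass the test at the RNA level. Tfeb read 8.27 in all 3 PBS mice and 8.37, 8.28 and 8.24 with rapamycin, a difference of 0.023 (95% interval -0.091 to 0.14; limma adjusted p 0.799). The PBS values of Tfeb were equal to the last digit. Between 4.4% and 7.0% of the deposited values were exactly equal in any pair of arrays, also across groups, so such a tie need not show a constant level. Tfe3 differed by 0.055 (-0.096 to 0.21; 0.621), with 8.75 in rapamycin replicate 1 and between 8.52 and 8.58 elsewhere. Arrays measure RNA, so the phosphorylation and location of these factors, through which mTORC1 acts on them, were not measured.

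Of the 9 genes of the proton pump, Atp6v0a1 rose, 0 fell and 8 did not pass. The pump is built of a V0 sector in the membrane, which carries protons, and a V1 sector on the cytosolic side, which splits ATP. Atp6v0a1, the a1 subunit of V0, read 9.83, 9.88 and 9.76 with PBS and 10.19, 10.26 and 10.05 with rapamycin, a difference of 0.34 ± 0.066 (SE, n = 3 each; limma adjusted p 0.0220). Its groups did not overlap, and yet among the refits with 1 array dropped it was called only without rapamycin replicate 3, with an adjusted p between 0.0600 (without rapamycin replicate 2) and 0.0921 (without rapamycin replicate 1) in the others. The catalytic subunit Atp6v1a read 10.03, 9.97 and 9.95 with PBS and 10.09, 10.13 and 10.16 with rapamycin (0.15; 95% interval 0.038 to 0.25; 0.0869). Atp6v1d, of the central stalk, read 9.38, 9.48 and 9.25 against 9.18, 9.23 and 9.18 (-0.17; -0.32 to -0.022; 0.128). These subunits of V1 thus lay in opposite directions, each without overlap and neither past the threshold.

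The remaining 6 pump genes overlapped between the groups. Atp6v0d1, another V0 subunit, differed by 0.037, the regulatory Atp6v1h by 0.069, the accessory Atp6ap1 by -0.013, the ATP-binding Atp6v1b2 by -0.018, Atp6v1c1, which helps to hold V1 on V0, by -0.052, and the stalk subunit Atp6v1e1 by -0.10. The median over the 9 genes was -0.013, and the 95% intervals of the 8 uncalled ones lay between -0.32 and 0.25. By mouse, the median deviation from the PBS mean was between -0.043 and 0.052 with PBS and between -0.018 and 0.017 with rapamycin, so the groups overlapped.

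Set side by side, the cathepsins had 4 of 8 members called higher and a median of 0.24, the pump 1 of 9 and -0.013, and the glycosidases 0 of 8 and 0.029, beside 4.42% called higher and a median of -0.017 over all genes. The difference between these gene groups was not tested. Ctse, which was called lower, and Ctsk, which did not pass, are not among these 8 cathepsins and are described below. Without the 8 cathepsins, the other 30 members had 3 higher and 2 lower calls and a median of 0.036.

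**Figure D3:**
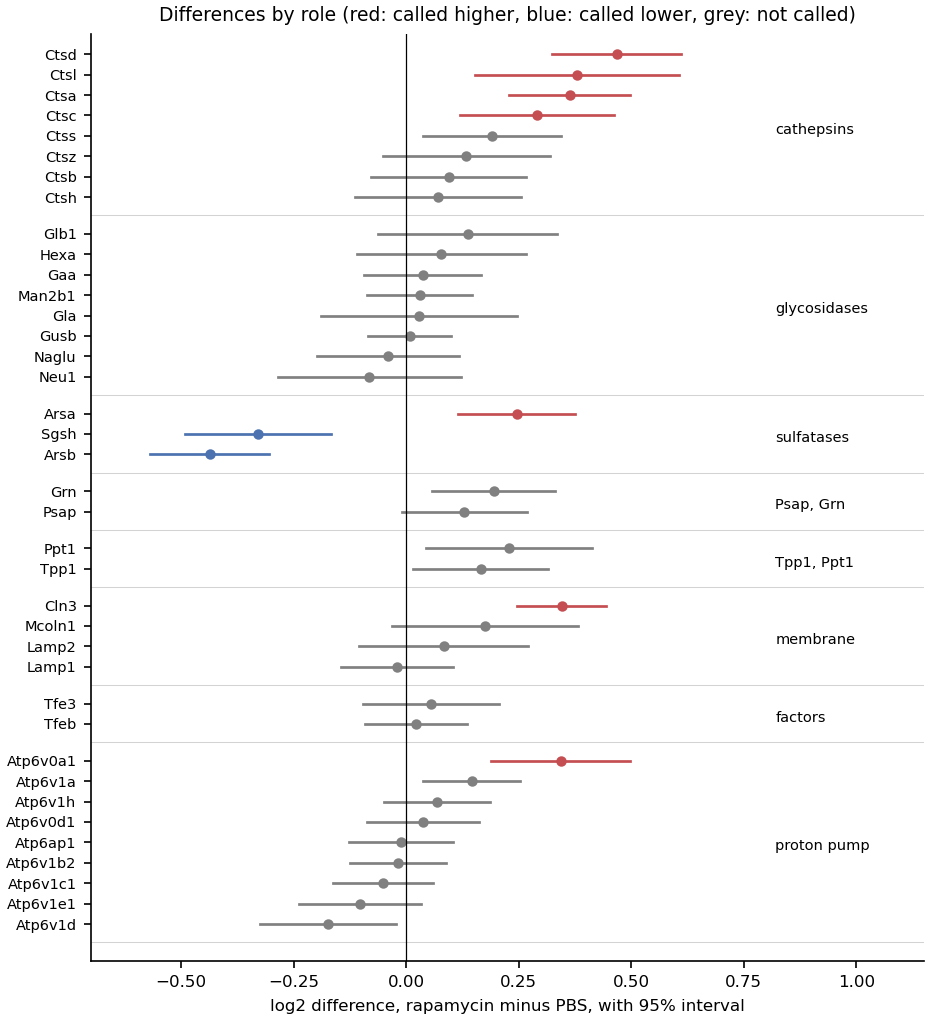
Log2 difference, rapamycin minus PBS, of each of the 38 members with its 95% interval from limma, grouped by role and ordered within a group. Red marks members called higher, blue called lower and grey not called; Ctsd has the largest rise at 0.47 and Arsb the largest fall at -0.44, and the intervals of all 8 glycosidases include 0.

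The count of called members depended on single arrays, as did the count over all genes. It was 9 with all arrays. Without PBS replicate 2 only Ctsd and Cln3 were called, when 0.809% of all genes were. Without PBS replicate 3 or rapamycin replicate 1 there were 3, the same genes and Arsb (2.91% and 2.64% of all genes). Without PBS replicate 1 or rapamycin replicate 2 there were 4, with Ctsa added (5.01% and 5.10%), and without rapamycin replicate 3 there were 7 (9.57%), all of the 9 except Ctsc and Ctsl. These fits also had fewer samples. Every one of the 9 kept its direction in all of them.

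Other genes of the lysosome, also listed by name with earlier results of these data known, changed in both directions. Of the 128 listed, 115 have a probe set of their own and 108 passed the brightness threshold. Of these 108, 12 rose (11.1%) and 10 fell (9.26%), with a median log2 difference of 0.0071. Over all genes tested 4.42% rose and 6.92% fell, and above the 50th percentile of brightness 7.13% and 10.8%. Without PBS replicate 2, 1 of the 108 rose and 0 fell, when 0.809% of all genes were called.

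Among 7 inhibitors of lysosomal proteases above the threshold, 2 rose and 0 fell, beside 4.42% and 6.92% of all genes tested. Cst3 (cystatin C), a secreted inhibitor of cysteine cathepsins, read 11.16, 11.11 and 11.19 with PBS and 11.67, 11.52 and 11.59 with rapamycin, a difference of 0.44 ± 0.054 (SE; limma adjusted p 0.00770). Cstb, an inhibitor of the same proteases in the cytosol, read 8.56, 8.65 and 8.55 against 9.20, 8.92 and 9.10 (0.49 ± 0.077; 0.0130). In both genes all rapamycin mice stood above all PBS mice, by a margin wider than the spread within either group for Cst3. The call of Cst3 was lost only without PBS replicate 2 (0.0504), and that of Cstb without PBS replicate 1 (0.0536), 2 (0.0605) or 3 (0.0589). The stefins Stfa2 (1.26; 95% interval 0.40 to 2.13; 0.0703) and Stfa3 (1.23; 0.16 to 2.29; 0.127), which belong to the same inhibitor family, varied widely between mice and did not pass. Stfa2 reached 10.97 in rapamycin replicate 3 and 9.61 in replicate 1, and the PBS mice were between 8.52 and 9.48. Stefin genes are near-identical copies of each other, and a probe set named for one may also pick up its copies.

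Of 12 genes listed as other peptidases and above the threshold, 2 fell and 0 rose, beside 6.92% and 4.42% of all genes tested. Ctse, an aspartic protease of endosomes related to Ctsd, read 12.32, 12.41 and 12.41 with PBS and 12.01, 12.07 and 12.02 with rapamycin, a difference of -0.35 ± 0.047 (SE; limma adjusted p 0.00873). It moved opposite to Ctsd, and its call was lost only without PBS replicate 2 (0.0527). Pcyox1, which breaks down prenylated cysteine, is an oxidase and not a peptidase, though it stood on this list. It differed by -0.44 ± 0.10 (limma adjusted p 0.0355). Among the refits with 1 array dropped, it was called only without rapamycin replicate 3, with up to 0.132 without rapamycin replicate 1. The other 10, among them Lgmn (asparagine endopeptidase) at -0.067 and the macrophage protease Ctsk at 0.15, did not pass.

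Of 23 genes listed as other hydrolases, Dnase2a, which digests DNA of engulfed cells, rose by 0.23 ± 0.059 (SE; limma adjusted p 0.0472). Hgsnat, on this list though it is a transferase that acetylates heparan sulfate ends before Naglu acts, fell by 0.39 ± 0.066 (0.0155). The other 21 did not pass, and over all genes tested 4.42% were called higher and 6.92% lower. Hgsnat read 9.35, 9.57 and 9.49 with PBS and 9.03, 9.07 and 9.13 with rapamycin, without overlap. Its call was kept only without PBS replicate 1 or rapamycin replicate 3, and the adjusted p was up to 0.0726 without rapamycin replicate 1. Dnase2a was called only without PBS replicate 1, and its adjusted p was up to 0.151 without PBS replicate 2.

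Of 22 other membrane proteins 4 rose and 2 fell, beside 4.42% and 6.92% of all genes tested. Cd68, a heavily glycosylated protein of macrophage lysosomes, showed the largest rise, from between 10.49 and 10.86 to between 11.49 and 11.58. Slc15a4, which carries histidine and peptides out of the lysosome, read 7.67, 7.65 and 7.66 with PBS and 8.10, 8.01 and 8.02 with rapamycin, a difference of 0.38 ± 0.045 (SE; limma adjusted p 0.00754). Both were called in 5 of the 6 refits with 1 array dropped, and without PBS replicate 2 the adjusted p of each was 0.0504. Scarb2, the receptor that delivers glucocerebrosidase, rose by 0.31 ± 0.060, and Slc38a9, an arginine sensor for mTORC1, by 0.34 ± 0.084. Mfsd8, whose loss causes a lipofuscinosis of childhood, fell by 0.46 ± 0.10, and the peptide transporter Abcb9 by 0.22 ± 0.049. These 4 were weaker: the adjusted p was 0.0222, 0.0452, 0.0319 and 0.0349, and up to 0.0917 (Scarb2) and 0.114 (Abcb9) without PBS replicate 2, 0.158 (Slc38a9) without rapamycin replicate 1 and 0.106 (Mfsd8) without PBS replicate 3. The call of Scarb2 was kept in 2 of the 6 such fits and those of the other 3 in 1. The dimmer probe set of Slc38a9 differed by 0.13 and did not pass.

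Of 13 other pump subunits, Atp6v0e, a small V0 subunit, rose from 9.77, 9.87 and 9.75 to 10.17, 10.14 and 9.99 (0.30 ± 0.063, SE; limma adjusted p 0.0279), and 12 did not pass. The rapamycin mice all stood above the PBS mice. It was called only without rapamycin replicate 3 when arrays were left out, with up to 0.105 without rapamycin replicate 1. With the members included, 2 of 8 V0 subunits and 0 of 12 V1 subunits were called higher and none lower, with medians of 0.071 and -0.012; this division was made after the values were seen. At an unadjusted p under 0.05 there were 4 of the 8 and 4 of the 12, beside 28.2% of all genes. Without overlap between the groups, 4 V0 subunits lay higher and 0 lower, and 2 V1 subunits lay higher and 2 lower. Over all genes these shares were 12.6% and 19.4%, and 4.42% were called higher and 6.92% lower. Of 12 genes that sort enzymes to the lysosome, Igf2r, the large mannose 6-phosphate receptor, fell by 0.26 ± 0.066 (0.0477), and its call was lost in each of the 6 refits with 1 array dropped, with up to 0.151 without PBS replicate 2.

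The lysosomal arm of mTORC1 and the relatives and regulators of Tfeb gave 4 rises and 4 falls among 19 genes. Over all genes tested, 4.42% were called higher and 6.92% lower. Tfec, the member of the Tfeb family that is best known from myeloid cells, read 9.57, 9.35 and 9.49 with PBS and 10.02, 9.93 and 9.95 with rapamycin. It rose by 0.50 ± 0.065 (SE, n = 3 each; limma adjusted p 0.00820), was called in each of the 6 refits with 1 array dropped, and its groups lay apart by more than their spread. Mitf, the remaining relative, differed by 0.035 (95% interval -0.085 to 0.15). Within this family 1 of 4 genes was therefore called. Lamtor5, of the Ragulator scaffold that holds mTORC1 to the lysosome, rose from 7.94, 7.95 and 7.91 to 8.25, 8.33 and 8.29 (0.36 ± 0.044; 0.00770; lost only without PBS replicate 2, at 0.0504). Lamtor2 of the same scaffold fell by 0.23 ± 0.041 (0.0182), and so did the GTPase Rraga, by 0.33 ± 0.065 (0.0231). The difference of Lamtor2 was the same whichever rapamycin array was dropped, so its 3 rapamycin values were equal. As for Tfeb, such a tie need not show a constant level, and it can narrow the standard error. The RNA of Lamtor5 and that of Lamtor2, parts of 1 complex, thus moved in opposite directions. Lamtor1 and Lamtor3 of the same scaffold differed by 0.085 and -0.087 and did not pass.

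The other calls of this list were less firm. Zkscan3, a repressor of autophagy genes, rose by 0.24 ± 0.045 (SE; limma adjusted p 0.0205), and Fnip1, a partner of folliculin, fell by 0.31 ± 0.063 (0.0264). The remaining calls were Rheb, the GTPase that switches mTORC1 on, at 0.34 ± 0.071 (0.0275), and Ppp3r1, of the phosphatase calcineurin that acts on Tfeb, at -0.18 ± 0.043 (0.0428); the limit of 6 named genes per list left both out, and they were named after their values were seen. When an array was left out, Rheb and Ppp3r1 were called in 0 of 6 fits, Fnip1 in 1, and Rraga, Lamtor2 and Zkscan3 in 2 each, and the adjusted p was up to 0.0987 (Rheb) and 0.105 (Fnip1) without rapamycin replicate 1, and 0.125 (Ppp3r1), 0.0959 (Rraga), 0.0640 (Lamtor2) and 0.0788 (Zkscan3) without PBS replicate 2. Mtor and Rptor did not pass, at 0.0039 and 0.11.

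**Figure D4:**
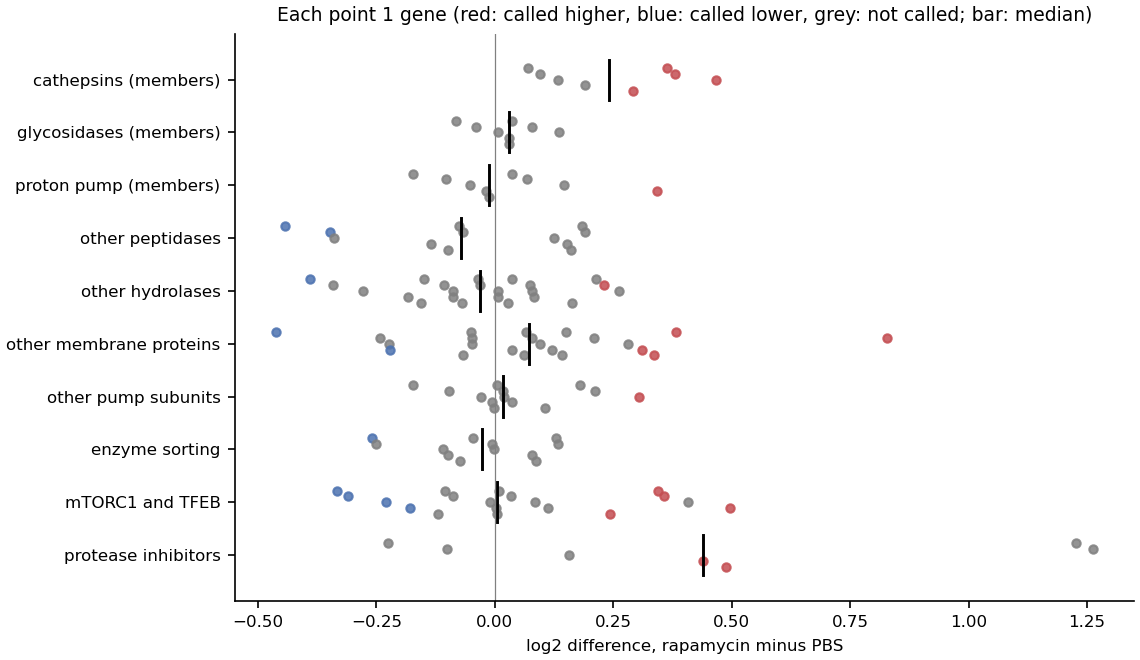
Log2 difference, rapamycin minus PBS, of every gene above the brightness threshold in 3 member groups and in the 7 lists of other lysosomal genes; each point is 1 gene, black bars are medians, and red, blue and grey mark genes called higher, called lower and not called. The medians of the cathepsins (0.24) and of the protease inhibitors (0.44) lie to the right of those of the other lists, which fall between -0.071 and 0.072, and the 2 stefins far to the right are not called.

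Markers of cell types that a CD11b sort holds or can carry over moved in part beside these genes. The sort marker Itgam read 12.31, 12.48 and 12.38 with PBS and 12.29, 12.30 and 12.22 with rapamycin. Its groups did not overlap, as for the 19.4% of all genes that lay lower, and it did not pass (-0.12; 95% interval -0.25 to 0.014). Of 15 macrophage markers above the threshold, Cd68 rose and Mrc1 fell, and the sum of their unlogged levels ran from 6320.2 to 8497 in the PBS mice and from 9161 to 9393 in the rapamycin mice. Without Cd68, which is itself lysosomal, the sums were 4879.6 to 6639 and 6284 to 6379, so that the groups overlapped. Of the 15 markers 11 lay above 0, with a median log2 difference of 0.13. The defining macrophage genes Adgre1 (0.22; limma adjusted p 0.306) and C1qa (0.080; 0.734) did not pass and overlapped between the groups. Timd4 (0.71; 0.0588), C1qc (0.47; 0.147) and Mertk (0.40; 0.0913), named after their values were seen, did not pass either, but like Cd68 they had all rapamycin arrays above all PBS arrays. Mrc1 differed by -1.04 (limma adjusted p 0.00908), with all rapamycin arrays below all PBS arrays. Vcam1 (-0.29; 0.205) and Siglec1 (-0.27; 0.158), named in the same way, lay lower with overlap and did not pass. Without overlap, 4 of the 15 markers lay higher and 1 lower, beside 12.6% and 19.4% of all genes tested. Of 16 neutrophil markers 1 rose and 0 fell, with sums from 84556 to 89081 and from 82546 to 88419.7. Of 10 monocyte markers 0 rose and 3 fell: Ccr2 (-0.34; limma adjusted p 0.0409), Ace (-0.57; 0.0327) and Cd300e (-0.49; 0.0370). Over all genes tested 4.42% rose and 6.92% fell. The monocyte sums ran from 7382 to 7601 and from 7134 to 8159. The mean log2 of these markers ran from 8.44 to 8.57 with PBS and from 8.32 to 8.38 with rapamycin, without overlap. This mean gives dim markers, such as Ace and Cd300e at 6.26 and 5.71 with PBS, the same weight as bright ones. With 1 array left out, Ccr2 was called in 0 of 6 fits and Ace and Cd300e in 1 each. Of the 10 monocyte markers 3 lay above 0 and 7 below. Without overlap, 1 of them lay higher and 5 lower, beside 12.6% and 19.4% of all genes tested. The 1 that lay higher was the bright Ms4a4c (0.36; limma adjusted p 0.0811), named after its values were seen, which did not pass. Of 7 markers of T and NK cells above the threshold 0 rose and 2 fell, with sums from 333 to 354 and from 270.2 to 312. Of the markers above the threshold, 0 of 4 for eosinophils were called, 1 of 6 for dendritic cells and 1 of 2 for B cells fell, and 1 of 5 for red cell precursors rose. The part of these cells in the differences of the lysosomal genes was not tested.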

How the data were processed

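RNA of sorted splenic cells from 6 mice was labelled with biotin by whole-transcript sense target labelling, per the labels, and each mouse has an array of its own. The values the authors deposited are on the log2 scale, 1 per probe set, summarised by RMA in Affymetrix Expression Console per the submitters' processing notes; versions and the build of the probes are not given in the sources used here. This summary brings the arrays close to a common distribution (their medians over all probe sets differed slightly), so a shift common to most genes may be reduced. No scan dates are in the labels used here, so no batch could be tested.

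GEO's platform annotation supplied the gene names. Of 35556 probe sets, 21789 had 1 symbol and were kept (21698 of them matched by Entrez ID to RefSeq genes of GRCm38.p6), 1621 had several and 12146 are unnamed here. A gene was read from its brightest probe set over the 6 arrays. Genes with a mean under log2 4.72 (30th percentile) were set aside, which left 13965 of 19938.

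The comparison used limma 3.58.1 (lmFit, eBayes) under R 4.3.3, with Benjamini-Hochberg adjustment over all 13965 genes; genes past the test have an adjusted p under 0.05, and ± after a difference is limma's moderated standard error. The code was tested on simulated data. The members, the gene lists and the tests were chosen with earlier results of these data known. All 38 members are reported, and of each list of other lysosomal genes those past the test, at most 6 by moderated statistic; other genes were named after their values were seen. Alternatives were no filter or a stricter one (50th percentile), a repeated quantile normalization, aligned medians, probe sets of a gene averaged, every probe set tested, intensity trend with robust estimation, array weights, the replicate number as a block and each array left out. Plots were made in matplotlib 3.10.9 (Python 3.11.15).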

Additional observations from a re-analysis of the deposited data

How the results depend on the processing

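The 7 higher and 2 lower calls among the members stayed within 5 to 7 and at 2 under the changes of filter, normalization, probe set, variance model and array weights, under which between 6.32% and 17.9% of all genes were called. With no brightness filter 2 cathepsins were called higher in place of 4, and after a repeated quantile normalization the cathepsin median was 0.15 in place of 0.24. With an array left out, the members called higher were between 2 and 5 and those called lower between 0 and 2, the cathepsins called higher between 1 and 2, the pump members called higher between 0 and 1, and the other lysosomal genes called higher between 1 and 10 and called lower between 0 and 7. The medians in these fits ran from 0.046 to 0.098 for the members, 0.19 to 0.29 for the cathepsins, 0.0025 to 0.053 for the glycosidases and -0.026 to 0.0085 for the pump, whose median of -0.013 also lay at 0.011 with the array medians aligned. No glycosidase was called in any of these fits. Same-numbered arrays of the groups had correlations of deviations of 0.26, 0.010 and 0.046, and differently numbered ones lay between -0.19 and 0.14. The numbers were not taken to pair the mice, though 3 arrays per group cannot show that pairing is absent. With the replicate block 6 members were called higher and 2 lower, Ctsl (limma adjusted p 0.0605) and Arsa (0.0591) were lost and Ppt1 was gained (0.0373). With array weights Ctsl was lost (0.0561). Arrays carry no sequencing depth; all 38 members were also above the 50th percentile of brightness (log2 5.71).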

Other observations

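Enzymes that take apart glycosaminoglycans, put together from members and other lysosomal genes after their values were seen, were lower in part: of 11 genes 3 fell (Sgsh, Arsb and Hgsnat), 0 rose and 8 did not pass, at a median log2 difference of -0.041. Sgsh and Hgsnat act in the breakdown of heparan sulfate, as do Naglu (-0.041), Gusb (0.0077), Idua (-0.035) and Ids (0.036), which did not pass the test. Arsb and Galns (-0.087, not called) act on chondroitin sulfate. Of 10 genes of sphingolipid breakdown, chosen the same way, Arsa rose, 0 fell and 9 did not pass, at a median of 0.054. Glb1 stands in both groups. Among all genes tested 4.42% rose and 6.92% fell. The calls of Sgsh, Arsa, Hgsnat and Arsb were each lost when PBS replicate 2 was left out (limma adjusted p 0.111, 0.115, 0.0655 and 0.0508).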
